A study of Homo sapiens with 6 samples.

Results

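The 2535 regions described here are islands of HA-METTL14 chromatin immunoprecipitation (ChIP) that were listed after treatment with the elongation inhibitor DRB and had no counterpart among the islands of untreated cells. An island is a run of 200 bp windows in which SICER found more reads of the immunoprecipitate (IP) than its genome-wide background. The regions were chosen by their DRB IP reads and by island positions: they are DRB islands of the nuclear chromosomes that held 30 or more IP reads and shared not even 1 bp with an untreated candidate island. Measures that use those values are therefore given as a description. The adjusted p-values of the test across all islands are printed for single regions in the same sense and support nothing here. They were 14.8% of the 17150 nuclear DRB islands with 30 or more IP reads, and were drawn from 67801 nuclear DRB islands in all. The other 14615 islands of 30 or more IP reads, which did overlap an untreated island, are called overlapping islands below.

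The cells were HepG2, a human hepatocellular carcinoma line. All of them, untreated and treated, had been transduced by lentivirus with METTL14 cDNA that carried an HA tag at the N terminus and EGFP at the C terminus, selected with puromycin and sorted for high GFP. The protein followed was therefore an overexpressed fusion in a sorted population. DRB was given at 100 µM for 3 h to the cells of 1 IP and 1 input library, and the untreated condition had 2 IP and 2 input libraries, merged in the deposited table. Replicate error is thus unknown for every value given here. Every interval is an exact 95% interval. Intervals of IP over input cover the counting error of reads only, and reads are not independent molecules. Intervals of a share treat islands as independent draws, which they are not. They describe the list of islands and do not measure error of the condition.

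METTL14 is the partner of METTL3 in the nuclear complex that writes N6-methyladenosine on RNA while it is being transcribed. METTL3 carries the catalytic activity, and METTL14 helps to bind the RNA. METTL14 is also known to recognise the histone mark H3K36me3, which is laid down along gene bodies behind the elongating polymerase. DRB inhibits CDK9, the kinase that releases paused RNA polymerase II into elongation, and the treated libraries ask where the tagged protein lies on chromatin when elongation is blocked.

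The label "found only after DRB" says that no untreated island was called there, not that untreated reads were absent. Reads of untreated cells over these 2535 regions were not analysed here, because the deposited tables count reads within called islands only. The 2 conditions also differed in the reads within their called islands. With DRB, nuclear islands held 1977419 IP and 1330018 input reads, against 14495388 and 14661480 in untreated cells. These totals also depend on the number and width of the islands, so they are not library depth. In 7547 pairs of a DRB and an untreated island, each overlapping 50% or more of the other, untreated IP reads per kb were a median 5.29 times the DRB value (quartiles 4.42 and 6.39). No gene annotation of the build of these files, hg19, was used here, so gene content was not analysed and the regions are named by position.

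The regions had few reads. Their median IP count was 34 (quartiles 31 and 39) and the highest was 77, while the overlapping islands had a median of 43 and reached 16750. Of the 2535 regions, 1970 (77.7%) had 30 to 39 IP reads and 140 (5.52%) had 50 or more; among overlapping islands the shares were 41.3% and 36.9%. Together the regions covered 8.48 Mb and held 91408 IP reads, 4.62% of the IP reads of all nuclear DRB islands.

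The share of DRB islands that lacked an untreated counterpart fell as their IP reads rose. The share was 80.2% (79.2 to 81.2) at 11 to 14 IP reads, 51.96% at 20 to 24 and 24.6% (23.7 to 25.6) at 30 to 39. It was 11.8% (10.7 to 12.9) at 40 to 49 reads and 4.08% (3.44 to 4.80) at 50 to 74. At 75 to 99 reads it held for 1 of 1107 islands, and at 100 or more for 0 of 1025 (upper bound 0.359%). Median width rose over the same classes of IP reads, from 0.6 kb at 11 to 14 reads to 3.0 kb at 30 to 39 and 9.2 kb at 100 or more. Whether the share followed reads or width was not tested. The minimum of 30 reads fell on the slope of the falling share. Just outside it, 476 of 1397 islands with 29 IP reads had no untreated counterpart, with a median IP over input of 1.93 and a median width of 2.8 kb. Just inside it, with 30 IP reads, 354 of 1165 had none, with 1.88 and 2.8 kb.

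**Figure D1:**
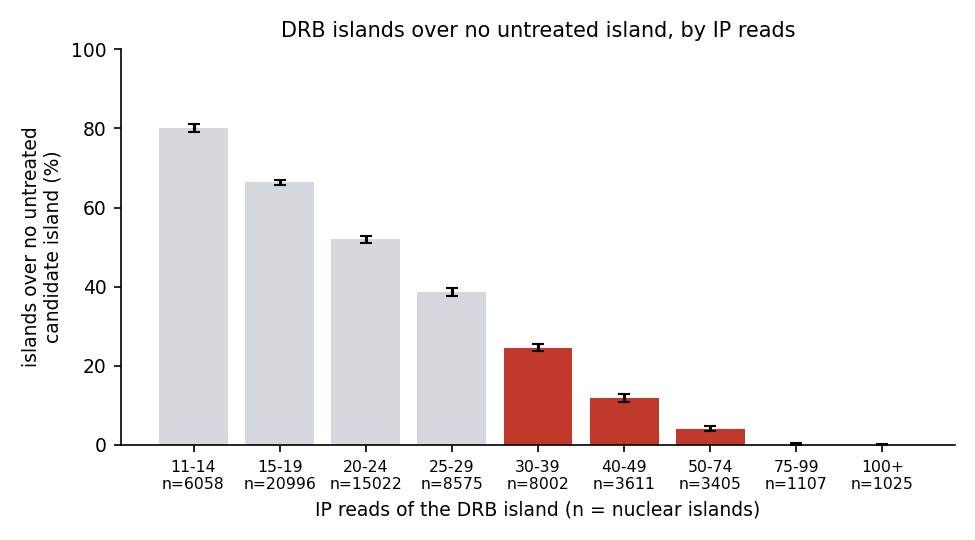
Share of nuclear DRB islands that lie over no untreated candidate island (vertical axis, percent) by the IP reads of the DRB island (horizontal axis), with exact 95% intervals; the red bars, from 30 reads on, hold the regions described here. The share falls from 80.2% at 11 to 14 reads to 0 of 1025 islands at 100 or more, while the median width rises from 0.6 to 9.2 kb.

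IP reads exceeded input reads in nearly all of the regions, as the choice on IP reads favors. The median of IP over input, taken on the deposited reads, was 1.83 (quartiles 1.53 and 2.18), and in 15 of the 2535 it was under 1. Overlapping islands had a median of 1.39 (quartiles 1.18 and 1.65), with 1245 of 14615 under 1. Over all nuclear DRB islands, most of which had fewer than 30 IP reads, the median was 1.75, close to that of the regions. A ratio of 2 or more was found in 987 regions (38.9%), in 39.3% of all nuclear DRB islands and in 9.42% of the overlapping islands. These ratios need a reference point. The authors' scaling sets an IP over input of 1.16 as no enrichment, and summed over all nuclear DRB islands the ratio was 1.49. The nuclear DRB islands were called for their IP reads and include the regions, so the ratio of 1.49 already holds any enrichment in them. The mitochondrial island, which is not among them, held 51.2% of the DRB input reads of the deposited table and 18% of its IP reads. On the authors' scale the regions had a median fold of 1.58. Relative to the pooled nuclear ratio the median was 1.23.

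**Figure D2:**
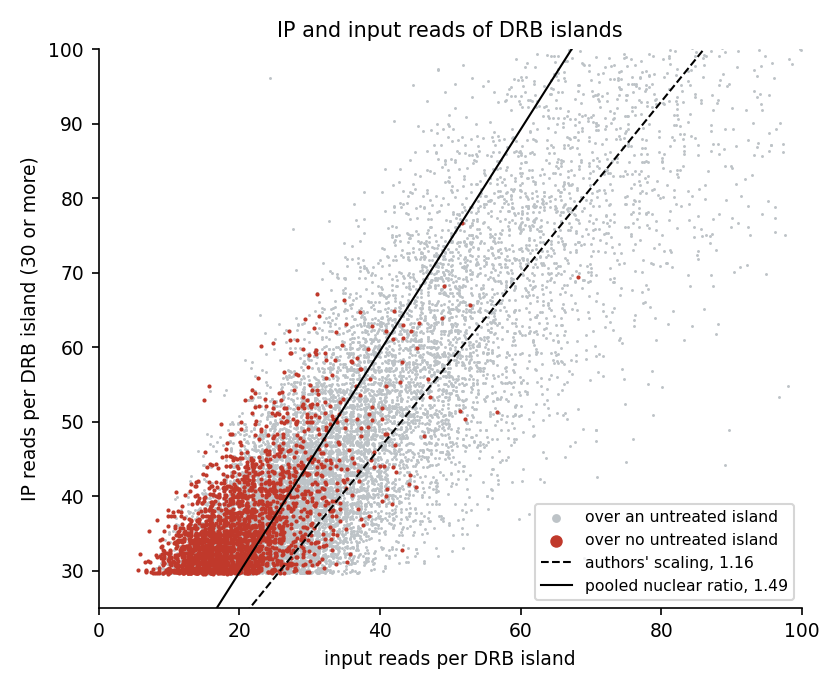
IP reads (vertical axis) against input reads (horizontal axis) of DRB islands with 30 or more IP reads, each point an island moved by up to 0.4 reads to separate ties; red points lie over no untreated island and are drawn on top of the grey points, which lie over one, and the view ends at 100 reads. Most red points sit at 30 to 39 IP reads, and 79.2% of them lie above the line of the pooled nuclear ratio of 1.49.

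Few reads gave wide intervals. The upper bound of the interval of IP over input was a median 3.31 times the lower bound, and in 2423 regions (95.6%) the interval included 1.49, a share near the 95.3% of all nuclear DRB islands. In an exact two-sided binomial test of IP against input reads with the authors' scaling, adjusted over all 67801 nuclear islands (Benjamini-Hochberg), 2 of the 2535 regions were higher at an adjusted p under 0.05 and 0 were lower. The background was 8 higher calls, 0.0118% of all nuclear islands, and 55 lower calls, 0.0811%. At an unadjusted p under 0.05, 757 regions (29.9%) were higher and 0 lower, against 14.97% and 0.559% of all nuclear islands. With the pooled nuclear ratio as the null, 0 regions were called at an adjusted p under 0.05, and 120 (4.73%) were higher and 9 (0.355%) lower at an unadjusted p under 0.05. The background was then 0.00147% higher and 0.456% lower at the adjusted threshold, and 2.49% higher and 2.97% lower at the unadjusted one. All these calls use the IP reads on which the regions were chosen, and nothing is read from their shares.

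The 2 regions called by the binomial test are on chromosomes 21 and 10. The island at chr21:10841201-10843600 had 55 IP reads and 16 input reads, a ratio of 3.44 (1.94 to 6.43), with an adjusted p of 0.0456 in the exact binomial test. It lay 1.4 kb from the nearest untreated island. The island at chr10:39125401-39126400 had 53 IP reads and 15 input reads, a ratio of 3.53 (1.96 to 6.75), with an adjusted p of 0.0491 in the same exact test. Its input density was 15 reads per kb, where the median of all nuclear DRB islands was 7.0. Both positions are close to a centromere on hg19, where repeated sequence is common, and how reads that match several places were treated is not given in the sources used here. Neither call held with the pooled nuclear ratio as the null. That ratio is higher than the authors' and comes from the IP-called islands themselves, so fewer higher calls are built in.

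The deposited list of significant DRB islands, cut by the authors at a false discovery rate of 1e-04, included 232 of the regions, 9.15% (8.06 to 10.3). The background was 4.76% of all nuclear DRB islands, and 282 of the overlapping islands (1.93%) were on the list. The authors' p-value treats the scaled input as known without error. The 232 listed regions had medians of 35 IP and 12 input reads, a median ratio of 2.93 and a median width of 2.6 kb. The 2303 others had medians of 34 IP and 20 input reads, a ratio of 1.77 and a width of 3.4 kb. Listed regions had 4.65 input and 13.9 IP reads per kb, and unlisted ones 6.11 and 10.6.

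The input gave moderate support. The regions had a median of 19 input reads (quartiles 16 and 24, lowest 6, highest 68), and none had an input of 0. In 77 of them (3.04%) the input was 10 reads or fewer, against 38.9% of all nuclear DRB islands and 0.226% of the overlapping islands. An input of 20 reads or more was found in 49.9% of the regions and 87.4% of the overlapping islands. Per length, the regions had a median of 6.0 input reads per kb (quartiles 5.0 and 7.5), and 1724 of them (68.0%) lay below the median of all nuclear DRB islands, 7.0. Overlapping islands had a median of 8.89 input reads per kb, and 25.4% lay below 7.0. IP density was lower in the regions too, at a median of 10.7 reads per kb against 12.4 in overlapping islands and 12.2 over all nuclear DRB islands. The higher IP over input of the regions thus stood beside a lower input density and not beside a higher IP density. Islands are not replicates, and these differences between sets of islands were not tested.

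**Figure D3:**
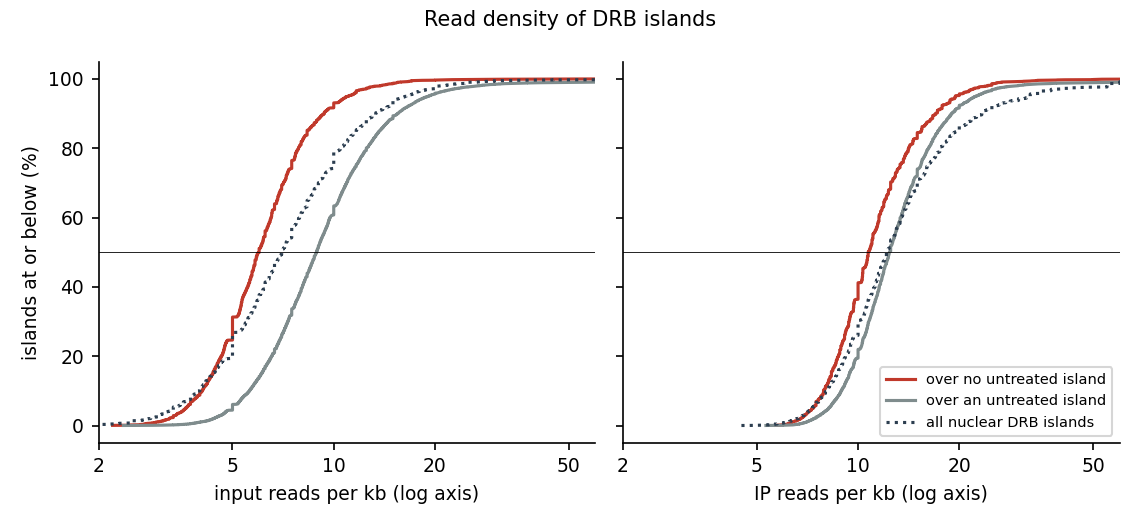
Cumulative share of DRB islands (vertical axis, percent) by input reads per kb (left) and IP reads per kb (right), on log axes, for regions over no untreated island (red), overlapping islands (grey) and all nuclear DRB islands (dotted). The red curve lies to the left in both panels, with medians of 6.0 input and 10.7 IP reads per kb against 8.89 and 12.4 for the grey curve.

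The order was the same at equal numbers of IP reads. Among islands with 30 to 39 IP reads, the 1970 regions had a median ratio of 1.84 and 5.88 input reads per kb, and the 6032 overlapping islands 1.48 and 7.94. With 40 to 49 IP reads the ratios were 1.78 and 1.41, and with 50 to 77 they were 1.79 and 1.35. Within such a class a higher ratio mostly restates a lower input count. When islands were taken by a total of 50 or more reads in place of 30 IP reads, 1926 islands had no untreated counterpart. Their median ratio was 1.60, against 1.32 for the 14997 that overlapped. The distance between the sets was therefore 0.280 in place of 0.446, in the same direction. A cut on the total leans less on the IP, but it admits islands with fewer IP and more input reads. All islands were still called on IP reads, so these values are a description. Overlapping islands that lay over an untreated significant island, 769 in all, had a median ratio of 1.28 and 10.2 input reads per kb.

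The regions were of middling width. Their median was 3.2 kb (quartiles 2.6 and 4.0), the widest was 8.6 kb, and 2158 (85.1%) measured 2 to 5 kb. Overlapping islands had a median of 3.6 kb and reached 78.8 kb, and 22.9% of them were wider than 5 kb, against 6.31% of the regions. All nuclear DRB islands had a median of 2.0 kb, and 13.8% were narrower than 1 kb, where 9 of the regions (0.355%) were. Overlapping islands, under the same minimum of 30 IP reads, were that narrow in 0.636%. At equal IP reads the median widths of regions and overlapping islands lay close together, with 3.0 and 2.8 kb at 30 to 39 reads, 4.0 and 3.6 kb at 40 to 49, and 5.0 and 4.8 kb at 50 to 77.

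The regions were spread over all chromosomes, X with 1 and Y with 8 included. Chromosomes 2, 6, 14, 16, 17 and 20 carry most islands of both conditions. HepG2 is known to hold extra copies of several whole chromosomes, but copy number was not measured here and its bearing on the islands was not tested. These 6 chromosomes held 1313 of the regions, 51.8% (49.8 to 53.8), but 80.1% (79.5 to 80.8) of the overlapping islands and 57.2% of all nuclear DRB islands. Chromosome 2 had the most regions, 500, followed by chromosome 6 with 315 and chromosome 20 with 171. As a share of the DRB islands of 30 or more IP reads on the same chromosome, the regions were rarest on chromosome 14, with 47 of 1992 or 2.36% (1.74 to 3.13). The share was 9.83% on chromosome 20, 10.4% on 2, 12.2% on 6, 14.5% on 16 and 15.1% on 17. On the 16 other autosomes it ran from 16.9% (9.31 to 27.1) on chromosome 21 to 40% on chromosomes 15 (30.8 to 49.8) and 22 (28.5 to 52.4), with the remaining autosomes between 25.7% and 35.5%.

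This order ran against the length of chromosome that untreated islands covered. They took 12.7% to 35.4% of the span of the 6 chromosomes and 1.69% to 4.42% of the other autosomes, span being the end of the last DRB island. Spearman's rho between that coverage and the share was -0.75 over the 22 autosomes, and rho between the median input density of all DRB islands and the share was also -0.75. The share counts islands that miss every untreated island, so by its definition it tends to fall where these cover more. The sign of rho with coverage is therefore no finding. The points share the same libraries, and the values fall into a group of 6 and a group of 16, so rho describes mainly the gap between those groups. Chromosome 14 departs from the order, with less untreated coverage than chromosomes 2, 6 and 20 and a lower share than any of them.

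**Figure D4:**
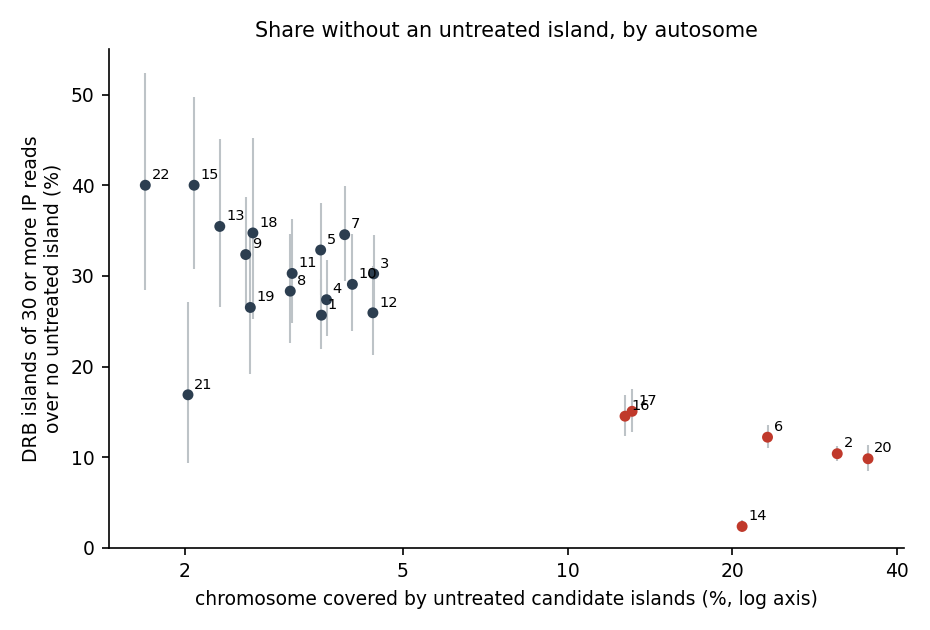
Share of DRB islands with 30 or more IP reads that lie over no untreated island (vertical axis, percent, exact 95% intervals) against the part of the chromosome covered by untreated islands (horizontal axis, percent, log axis), 1 point per autosome, with chromosomes 2, 6, 14, 16, 17 and 20 in red. The red points lie between 2.36% and 15.1%, and all others at 16.9% or more. By its definition the share tends to fall as this coverage rises.

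Ratio and input density kept their order on every autosome. The median IP over input of the regions was higher than that of the overlapping islands on 22 of 22 autosomes, with 1.71 to 2.11 for the regions and 1.29 to 1.58 for the overlapping islands. Their median input density was lower on 22 of 22, between 5.0 and 7.27 reads per kb. On the 6 chromosomes together the median ratios were 1.79 and 1.38, and on all other chromosomes 1.88 and 1.42. The autosomes share the same libraries and are not replicates.

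Distances from the regions to the nearest untreated island ranged widely, and no background of random positions was computed for them. The median distance to the nearest was 9.0 kb (quartiles 3.0 and 27.4). In 43 regions the 2 islands touched with no base between them, in 272 (10.7%) they were within 1 kb and in 919 (36.3%) within 5 kb. The distance was a median 6.0 kb on the 6 chromosomes and 15.2 kb on the others. At the other end, 178 regions (7.02%) lay more than 100 kb from any untreated island, 150 of them outside the 6 chromosomes, and the farthest was 2.22 Mb away. Those 178 had a median ratio of 2.06 and 5.27 input reads per kb, and the 272 within 1 kb had 1.77 and 6.29, with a median width of 3.2 kb in both. The nearest untreated island was on the authors' untreated significant list for 108 regions (4.26%), against 5.10% of all untreated nuclear islands.

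The regions were also more scattered among DRB islands than the overlapping islands were. The nearest other DRB island lay a median 6.4 kb away, against 1.8 kb for the overlapping islands, and within 5 kb for 42.6% against 77.3%. On the 6 chromosomes the medians were 5.0 and 1.4 kb, with 50.0% and 83.9% within 5 kb. On the others they were 8.7 and 5.0 kb, with 34.7% and 50.6%. The nearest other DRB island itself lay over an untreated island for 972 regions (38.3%) and for 81.1% of the overlapping islands. Within the 6 chromosomes these last shares were 46.2% and 87.3%, and outside them 29.95% and 56.1%. No such share was computed over all nuclear DRB islands. By definition the regions miss every untreated island and the overlapping islands lie over one, so their neighbours tend to differ in the same way. Nothing is read from these shares.

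The IP densities of the regions can be set beside those of the untreated islands after scaling. The scale depends on which reads set it, since the same pairs gave a median factor of 5.29 in IP density and 7.43 in input density. Multiplied by the IP factor, the median IP density of the regions comes to 56.7 reads per kb, and that of the overlapping islands to 65.6. Untreated candidate islands had a median of 52.3 IP reads per kb, with 42.1 at their 5th percentile and 34.6 at the lowest. The scaled density was below the untreated 5th percentile in 268 regions (10.6%) and in 4.0% of the overlapping islands, and below the untreated median in 36.4% and 19.4%. With the input factor, chosen as an alternative after seeing the data, the median of the regions comes to 79.6 reads per kb, 0 of the 2535 lie below the untreated 5th percentile, and 3.27% lie below the untreated median. Both factors come from islands called in both conditions and may not hold elsewhere, so this is a comparison of scale and not an estimate of untreated reads.

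The 10 regions with the highest lower bound of IP over input were mostly narrow islands with 6 to 8 input reads. The first was chr11:122373601-122375000, 1.4 kb wide, with 32 IP and 6 input reads, a ratio of 5.33 (2.20 to 15.6). It was followed by chr8:99622601-99623800 with 35 and 7 reads, a ratio of 5.0 (2.19 to 13.3), and by chr4:146525201-146526400 with 37 and 8 reads, a ratio of 4.63 (2.12 to 11.5). On chromosome 16, the island at chr16:21218001-21220200 had 30 and 6 reads, a ratio of 5.0 (2.05 to 14.7), and touched an untreated island. The 2 islands on chromosomes 10 and 21 described above came next, with more reads and narrower intervals.

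A group of 3 islands tied with 31 IP and 7 input reads, a ratio of 4.43 (1.91 to 11.9): chr3:37014201-37015400, chr3:155850401-155852600 and chr13:90834001-90834800. The nearest untreated island lay 13.8 kb from the first of them, 223 kb from the next and 281 kb from the last. The tenth was chr20:19222201-19224400 with 41 and 11 reads, a ratio of 3.73 (1.88 to 8.04), and it touched an untreated island. All 10 were on the authors' significant list, and all 10 lower bounds were above the pooled nuclear ratio of 1.49, as the choice by lower bound favors. In the exact binomial test 8 of the 10 did not pass, with adjusted p from 0.0735 to 0.270.

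Of the 5 regions with most IP reads, all but 1 had a ratio below the regions' median of 1.83. This did not hold for deeper regions at large, whose median ratio was 1.79 at 50 to 77 IP reads, against 1.84 at 30 to 39. The most IP reads, 77, were at chr6:44059801-44066400, a 6.6 kb island with 52 input reads and a ratio of 1.48 (1.03 to 2.15), only 0.2 kb from an untreated island. At chr1:2583601-2587800, 69 IP reads stood against 68 input reads, a ratio of 1.01 (0.715 to 1.44), with 16.2 input reads per kb. The island at chr1:94921201-94929800, also the widest at 8.6 kb, had 68 and 49 reads, a ratio of 1.39 (0.947 to 2.05). At chr16:21123001-21129800 there were 66 and 53 reads, a ratio of 1.25 (0.854 to 1.82). The exception among the 5 deepest was chr4:166210201-166216400, 6.2 kb wide, with 67 and 31 reads and a ratio of 2.16 (1.39 to 3.42); it was on the authors' significant list, but its adjusted p in the exact binomial test was 0.301.

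The other 4 of the 5 widest regions measured 7.4 to 8.4 kb. On chromosome 16, chr16:88723601-88732000 had 63 and 46 reads, a ratio of 1.37 (0.922 to 2.05). On chromosome 22, chr22:40901001-40908600 had 52 and 30 reads, a ratio of 1.73 (1.09 to 2.81). The 2 islands of 7.4 kb, chr5:64155801-64163200 and chr20:45783001-45790400, had 51 and 25 reads with a ratio of 2.04 (1.24 to 3.44), and 59 and 31 reads with 1.90 (1.21 to 3.04). None of these 4 was on the authors' significant list. Their input densities, 3.38 to 5.48 reads per kb, were below the median of 7.0.

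The 5 regions with the lowest upper bound had about as many input as IP reads, or more input. They were chr10:98560001-98561600 with 33 IP and 43 input reads and a ratio of 0.767 (0.472 to 1.24), chr6:119349601-119353000 with 51 and 57, chr17:73628801-73630400 with 41 and 45, chrY:10019201-10022600 with 50 and 52, and the chromosome 1 island at 2583601 given above. Input density in the 5 was 15.3 to 28.1 reads per kb, at least 2.18 times the median of all nuclear DRB islands.

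**Figure D5:**
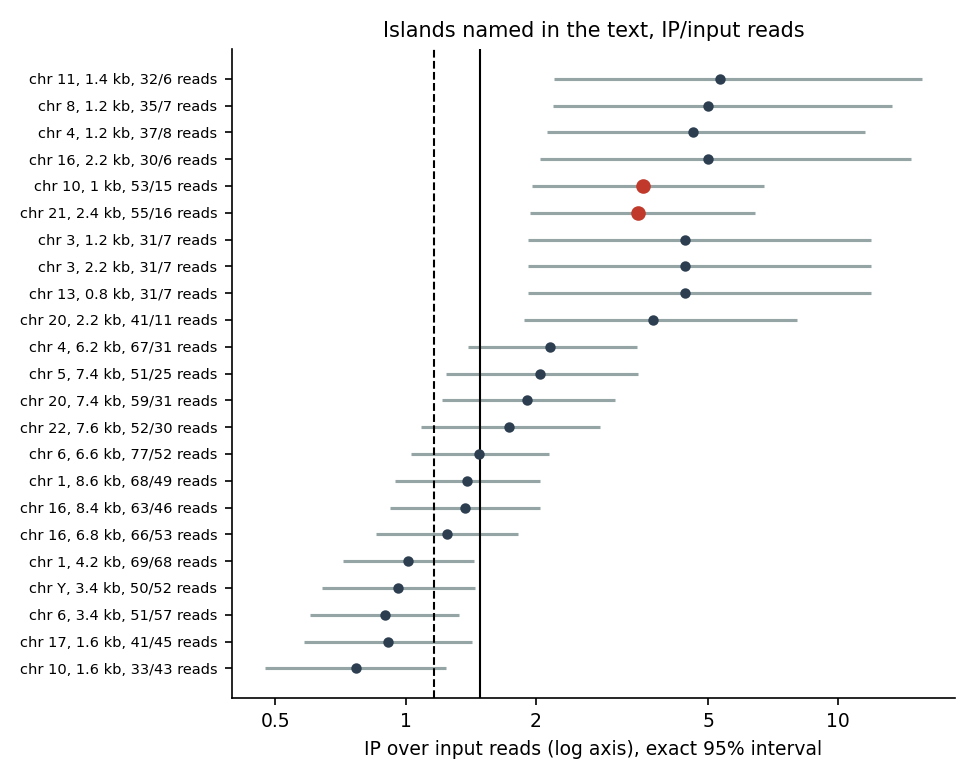
IP over input reads (horizontal axis, log axis) with exact 95% intervals for the 23 named regions, ordered by lower bound, each labelled with its chromosome, width and IP/input reads; the dashed line marks the authors' scaling (1.16), the solid line the pooled nuclear ratio (1.49), and red points the 2 regions called by the binomial test. The 10 uppermost intervals lie above both lines, and the intervals of the 5 widest regions cross the solid line.

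Very dense input was rare among the regions. An input density of at least 5 times the median was found in 3 of them (0.118%), against 1.29% of the overlapping islands and 0.478% of all nuclear DRB islands. DRB islands under 30 IP reads over no untreated island had a similar share, 0.140%. The 3 regions were chr2:133016201-133017000 with 33 IP and 32 input reads, the single 200 bp window chr16:33874001-33874200 with 32 and 11, and chrY:10025001-10025400 with 37 and 33. The 8 regions on chromosome Y had ratios from 0.962 to 2.28 and none was on the authors' list. The only one on chromosome X, chrX:61707801-61708400, close to the centromere, had 30 IP and 10 input reads, a ratio of 3.00 (1.43 to 6.88), and was on the list.

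The densest run of regions was on chromosome 2. Within 990 kb, from 202382401 to 203372400, 11 regions were found among 86 DRB islands, 36 of which had 30 or more IP reads. They held 34 to 53 IP and 13 to 41 input reads and were 2.6 to 5.6 kb wide, with ratios from 1.17 to 2.94 and a median of 2.06. The same stretch held 41 untreated candidate islands. The nearest untreated island was 0.8 to 60.4 kb away, depending on the region, and 2 of the 11 were on the authors' significant list.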

How the data were processed

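Per the labels' protocols, chromatin was sheared by sonication, precipitated with 2 µg of anti-HA antibody and sequenced as single-end reads of 50 nt. Alignment with Bowtie 1.1.2 to hg19, island calling with SICER and quality control with FastQC 0.11.5 are named in the submitters' processing notes. For SICER's settings and the merging of replicates, the sources used here give nothing. The deposited counts are whole IP and input reads per island, not normalized. The deposited fold is a ratio, IP over input times a constant (0.861 with DRB). The deposited p-value is a Poisson tail against the scaled input, and the false discovery rate follows from it. From these, overlap (1 bp or more), ratios with Clopper-Pearson intervals, densities per kb and an exact binomial test for all 67801 nuclear islands were computed. The binomial test was also run on simulated Poisson counts drawn at its own null ratio, with some islands raised. Selection on IP reads and variation beyond counting error were not simulated, so that run says nothing about them. The mitochondrial island was left out. Positions are 1-based on hg19. Members and settings were chosen with earlier results of these data known. Named regions were the 10 of highest lower bound, the 5 with most IP reads, the 5 widest, the 5 of lowest upper bound, all binomial calls, and the densest run within 1 Mb. The planned gene content and gene lists were not run, since the only gene table was on GRCh38.p14. Tests used SciPy 1.17.1 with pandas 2.3.3 and numpy 2.4.6 in Python 3.11.15; figures used matplotlib 3.10.9.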

Additional observations from a re-analysis of the deposited data

How the results depend on the processing

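No paired analysis was possible because the untreated replicates are merged in 1 column and the DRB condition has 1 replicate; for the same reason no replicate could be left out. The number of regions, 2535, was 13652 at a minimum of 20 IP reads, 140 at 50, 1616 with no untreated island within 5 kb, 1222 without chromosomes 2, 6, 14, 16, 17 and 20, and 16381 when only overlap with untreated significant islands counted. The median IP over input of 1.83 was 1.92 at 20 reads, 1.79 at 50, 1.88 at 5 kb and without the 6 chromosomes, 1.44 against significant islands, and 1.60 at a total of 50 or more reads. It was 1.77 as a pooled ratio, 1.79 with 1 read added to both, 1.58 with the authors' constant and 1.23 relative to the pooled nuclear ratio. The median width of 3.2 kb was 2.2 kb at 20 reads, 5.0 kb at 50, 3.6 kb against significant islands, and 3.0 kb at 30 to 39 reads, a setting chosen after seeing the data. The median input density of 6.0 reads per kb was 5.71, 6.35, 5.83, 8.33 and 6.52 at 20 reads, 50 reads, 5 kb, significant islands and 50 total reads. The share on the 6 chromosomes, 51.8%, was 45.2% at 20 reads, 55.7% at 50, 49.2% at 1 kb, 43.8% at 5 kb, 76.3% against significant islands and 53.8% at 50 total reads. The regions' median ratio exceeded that of overlapping islands by 0.446, and by 0.477 at 20 reads, 0.486 at 50, 0.169 against significant islands, 0.280 at 50 total reads and 0.366 at 30 to 39 reads, and no setting turned it. The 2 binomial calls were 0 with the pooled nuclear null (adjusted p of at least 0.190), 0 with a null from the median ratio of islands of 50 or more reads (at least 0.145), 0 at an adjusted p under 0.0001, 0 at 30 to 39 reads, 1 at 5 kb, 50 in both directions against significant islands, and 232 by the authors' rule. The fewer calls at 5 kb and at 30 to 39 reads follow from the regions left out, and the 50 calls from the larger set of 16381 islands. The 0 calls under 0.0001 follow from the smallest adjusted p of a region in the exact binomial test, 0.0456. The cause of the other changes was not tested. Counts of about 34 IP and 19 input reads limit every single-region ratio.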

Other observations

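Below the minimum of 30 IP reads, 29921 nuclear DRB islands also lay over no untreated island. They had medians of 18 IP and 9 input reads, a ratio of 2.14 and a width of 1.6 kb. Their input was 10 reads or fewer in 66.1%, and 38.0% of them (37.4 to 38.5, exact binomial interval) were on chromosomes 2, 6, 14, 16, 17 and 20, against 51.8% of the regions with 30 or more reads. Their median distance to an untreated island was 20.0 kb, against 9.0 kb. The authors' significant list held 2353 of them, 7.86%.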
